A study of Mus musculus with 37 samples.

Results

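Isl1 heterozygous mouse embryonic hearts were compared with wild-type hearts of the same cross, in hearts taken at stage E10.5 and measured by bulk paired-end RNA sequencing. The comparison used the 9 libraries titled Isl1 +/-, called Isl1_het here, and the 10 libraries titled Nipbl +/+; Isl1 +/+, called wild-type, which together are 19 of the 37 libraries of the series. They were chosen by title alone, with the set number in the label as a covariate. The cross joined Isl1 Cre/+ mothers, in which a Cre recombinase gene sits in 1 Isl1 allele and leaves it without function, with fathers that were Stra8-iCre; Nipbl Flox/+. Sperm of these fathers carried the Nipbl Flox allele, which works as wild-type, or the null Nipbl FIN allele. Embryos of both groups compared here could therefore carry Nipbl Flox from the father. The stated genotype also holds a + allele, and the titles do not tell it from Flox. Isl1_het hearts also carried Cre, and whether Cre acted on Nipbl Flox in them was not stated. The other 18 libraries, 9 Nipbl_het (Nipbl +/-) and 9 double_het (Nipbl +/-; Isl1 +/-), entered the fit to help estimate the spread and served for 1 side comparison.

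ISL1 is a LIM-homeodomain transcription factor of the second heart field, the progenitor population that adds cells to the outflow tract, the right ventricle and the venous pole of the looping heart. It is switched off as most of these cells become working myocardium and persists in the sinoatrial node region. A heart at this stage holds ventricular and atrial cardiomyocytes, endocardium, cushion mesenchyme that forms valves, a recently spread epicardium, and blood within its lumen.

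Library totals, in M (10 to the power 6 counts), ranged from 23.4 to 38.1 M in wild-type (median 34.1 M) and from 33.6 to 50.97 M in Isl1_het (median 34.8 M). Sets 1, 2, 5 and 6 held 3, 3, 2 and 2 wild-type and 3, 2, 3 and 1 Isl1_het libraries. Expression of Xist and Y-linked genes gave 7 female and 3 male wild-type and 7 female and 2 male Isl1_het libraries. Cardiac genes identified the tissue: the median library held 9946 CPM (counts per M counts of a library, after scaling) of the cardiac actin Actc1 in wild-type and 8730 CPM in Isl1_het, and 311 and 248 CPM of the cardiac transcription factor Nkx2-5. Labels did not say whether embryos came from separate litters, so p-values measure only the spread between these hearts. The library labelled Nipbl_het replicate 2 went against its label in Nipbl level, and it enters every double_het against Nipbl_het value below. Such values were also computed without it, and are printed where the call or direction differs or the value moves by over 1.5 times. For Nipbl itself the log2 change in that comparison was −0.08, or 0.08 without this library.

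Isl1 itself did not separate the groups. Its level ran from 5.03 to 13.0 CPM in wild-type (median 6.82) and from 4.38 to 10.4 CPM in Isl1_het (median 5.80). The ranges overlapped almost entirely, and 7 of 9 Isl1_het libraries were below the wild-type median. The log2 change was −0.20 (SE 0.18, edgeR adjusted p 0.877), and 2 SE on either side reached from −0.56 to 0.17. Without wild-type replicate 7 the change was −0.11, and without Isl1_het replicate 8 it was −0.32. Within sets 1 and 2 the difference was −0.49 and −0.28, and within sets 5 and 6 it was 0.04 and 0.03. The labels could therefore not be checked by Isl1 level, and whether reads from the Cre-carrying allele were counted was not tested. The libraries of double_het and Nipbl_het are in neither of the groups compared here, but they enter the same fit. Between these other groups Isl1 had a log2 change of −0.47 (SE 0.19, edgeR adjusted p 0.518), or −0.50 without the library labelled Nipbl_het replicate 2. Nipbl stood at 60.0 ± 10.1 CPM (SD, n = 10) and 61.5 ± 5.88 CPM (SD, n = 9), a log2 change of 0.03 (SE 0.11, edgeR adjusted p 0.972).

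Across the transcriptome the differences were small and none passed the threshold. edgeR's quasi-likelihood test called 0 of 15046 genes tested (0%) at a Benjamini-Hochberg adjusted p under 0.05, and the smallest adjusted p was 0.161. At an unadjusted p under 0.05 there were 886 genes, 498 higher in Isl1_het (3.31% of genes tested) and 388 lower (2.58%). With no difference a share of about 0.05 of genes would pass, both directions together, so these counts are only a little above that. Their median log2 change, taken without sign, was 0.28. DESeq2 called 11 genes and edgeR with 2 surrogate variables called 9. Without the library labelled Nipbl_het replicate 2, which only feeds the shared spread and the set terms, edgeR called 2 genes, Clca3a1 and Stom, and 1781 genes had an unadjusted p under 0.05. Without wild-type replicate 4 that count was 531, and without wild-type replicate 9 edgeR called 1 gene, Clca3a1. The middle 50% of genes had log2 changes between −0.09 and 0.09 (quartiles), and the median SE was 0.11. No gene separated the groups without overlap.

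Direction was followed within sets as well. The within-set difference was above 0 in sets 1, 2, 5 and 6 alike for 1815 genes (12.1%) and below 0 in all of them for 1317 genes (8.75%). From these genes, leaving out Xist and a few Y-linked marker genes and those whose mean log2 CPM was under 1, the 12 with the lowest p were taken per direction and are called leading genes. They were thus selected on this contrast, and their values describe it without testing it.

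The genes that led in the higher direction encode proteins of varied kinds. Upk3b, a uroplakin used as a marker of mesothelium, the sheet of cells that forms the epicardium, ran from 75.1 to 187 CPM in wild-type (median 161) and from 110 to 223 CPM in Isl1_het (median 209), and 7 of 9 Isl1_het libraries were above every wild-type library. Its log2 change was 0.45 (SE 0.11, edgeR adjusted p 0.306). Clca3a1, of the CLCA family of secreted and membrane proteins, had the smallest adjusted p: it ran from 3.83 to 17.1 CPM in wild-type (median 10.0) and from 8.39 to 21.5 CPM in Isl1_het (median 14.3), a log2 change of 0.85 (SE 0.16, edgeR adjusted p 0.161). Reads of Clca3a1 may be shared with its close paralogs. Tmem255a, a transmembrane protein gene on the X chromosome, ran from 3.62 to 27.2 CPM (median 17.1) in wild-type and from 8.68 to 33.4 CPM (median 29.8) in Isl1_het, with 6 of 9 Isl1_het libraries above every wild-type library. Egfl6, a secreted matrix protein with EGF repeats, also X-linked, ran from 0.15 to 3.30 CPM in wild-type and from 0.96 to 4.89 CPM in Isl1_het. Log2 changes were 0.90 for Tmem255a and 0.95 for Egfl6. Csdc2, an RNA-binding cold shock domain protein, stood at 0.62, Smpd3, a neutral sphingomyelinase, at 0.63, and Stom, the membrane protein stomatin, at 0.50. The adhesion gene Pcdh17, a protocadherin outside the gene clusters, stood at 0.74. Without set 1 Pcdh17 stood at 0.42 and Smpd3 at 0.38. Slc48a1, a heme transporter, and Nsun4, a methyltransferase of mitochondrial ribosomal RNA, had small but even differences of 0.24 and 0.21, and all 9 Isl1_het libraries were above the wild-type median in both.

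In 9 of these 12 genes, 7 of 9 Isl1_het libraries were above the wild-type median and the remaining 2 were Isl1_het replicates 2 and 3, both of set 1. The lowest wild-type library of each of these genes was also of set 1, and wild-type replicates 2 and 3 were the lowest of their group in all 9. These genes thus shared a pattern across libraries and are not 9 separate differences. The epicardial marker list described below had the same libraries of set 1 at its low end. Kirrel2 in set 1 was 4.33, 1.72 and 2.88 CPM in wild-type and 12.1, 4.69 and 5.59 CPM in Isl1_het. In set 2 it was 8.33, 9.31 and 9.77 CPM against 11.4 and 12.2 CPM, in set 5 it was 4.44 and 7.24 CPM against 10.6, 11.0 and 10.7 CPM, and in set 6 it was 7.35 and 7.90 CPM against 10.3 CPM. Within each set every Isl1_het library was above every wild-type library for this gene, although the sets differed in level.

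**Figure D1:**
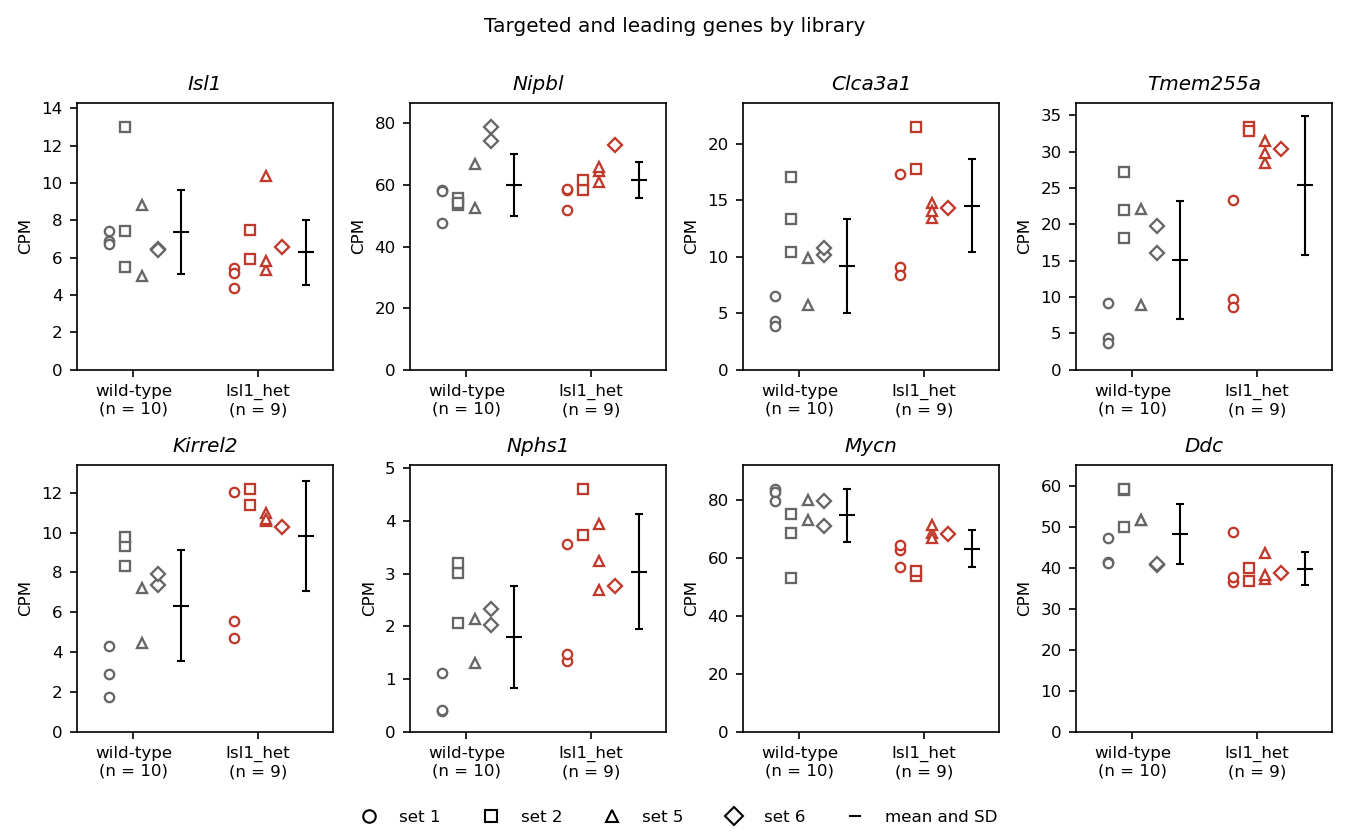
Level in CPM of the targeted genes Isl1 and Nipbl, 4 genes that led in the higher direction and 2 that led in the lower direction, for 10 wild-type and 9 Isl1_het libraries. Each symbol is a library, its shape gives the set, and bars give the mean and SD. For Clca3a1, Tmem255a, Kirrel2 and Nphs1, all set 1 libraries but Isl1_het replicate 1 were below the wild-type median. The groups overlapped in every gene shown.

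Kirrel2 and Nphs1 are neighbours, the only such pair within 100 kb among the 24 leading genes. Both encode immunoglobulin-domain adhesion proteins of the kidney slit diaphragm, and Nphs1 encodes nephrin. In the RefSeq annotation of GRCm38.p6 they lie head to head on chromosome 7, Kirrel2 from 30447766 to 30457515 on the minus strand and Nphs1 from 30458207 to 30488623 on the plus strand, with 691 bases between them. Nphs1 ran from 0.39 to 3.21 CPM in wild-type (median 2.04) and from 1.34 to 4.60 CPM in Isl1_het (median 3.24). The log2 change was 0.99 (SE 0.24, edgeR adjusted p 0.306) for Nphs1 and 0.80 (SE 0.18, edgeR adjusted p 0.243) for Kirrel2. An antisense transcript of Nphs1 is annotated, and since the strand setting of the counting is not given in the sources used here, its reads cannot be separated from those of Nphs1. The RefSeq promoter windows of the pair are shown because these neighbours had similar differences. Each is read 5′ to 3′ on its gene's strand with 250 bases before the annotated start in lower case and the first 50 bases after it in capitals. The Kirrel2 window is chr7:30457466-30457765, with a GC content of 59.7%, and lies partly in the interval between the genes. The Nphs1 window, chr7:30459808-30460107 with 49.7%, starts inside the annotated gene, at a later transcript start.
Kirrel2: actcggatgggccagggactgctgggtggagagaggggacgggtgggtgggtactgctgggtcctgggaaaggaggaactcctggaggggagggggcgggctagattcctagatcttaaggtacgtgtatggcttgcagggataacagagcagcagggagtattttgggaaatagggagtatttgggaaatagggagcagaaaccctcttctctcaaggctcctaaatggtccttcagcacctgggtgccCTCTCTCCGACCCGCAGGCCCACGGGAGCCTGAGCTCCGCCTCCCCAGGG
Nphs1: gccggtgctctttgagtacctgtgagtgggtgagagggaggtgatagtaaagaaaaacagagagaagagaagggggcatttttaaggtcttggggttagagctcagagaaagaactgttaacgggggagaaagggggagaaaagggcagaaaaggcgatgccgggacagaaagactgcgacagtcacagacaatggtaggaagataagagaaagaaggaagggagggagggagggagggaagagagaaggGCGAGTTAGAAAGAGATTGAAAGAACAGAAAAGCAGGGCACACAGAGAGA

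The letters CTAATG, which contain the TAAT core that homeodomain proteins of the Isl1 type recognise, were searched on both strands of these windows. Neither printed window held them. They were found in 7.36% of all 32851 promoter windows and in 5.81% of the 11802 tested genes with a window. Among genes at an unadjusted p under 0.05, 6.84% of 380 higher and 4.78% of 293 lower genes with a window held the letters. Of the 24 leading genes, 16 had a window, and those of Nsun4, C130080G10Rik and Ddc held them. A match describes letters and does not show binding.

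The genes that led in the lower direction had log2 changes between −0.25 and −0.49, apart from Erdr1. Mycn, a Myc-family factor needed for growth of the ventricular wall, ran from 53.0 to 83.6 CPM in wild-type (median 77.4) and from 53.6 to 71.4 CPM in Isl1_het (median 64.3). All 9 Isl1_het libraries were below the wild-type median, and wild-type replicate 7 was the lowest library of all. The log2 change was −0.27 (SE 0.07, edgeR adjusted p 0.306). Sall4, a zinc finger factor of progenitor cells, ran from 6.58 to 20.4 CPM and from 7.17 to 12.7 CPM, a log2 change of −0.44. Ddc, which encodes aromatic L-amino acid decarboxylase, ran from 40.7 to 59.2 CPM in wild-type (median 48.6) and from 36.6 to 48.8 CPM in Isl1_het (median 38.2), and 7 of 9 Isl1_het libraries were below every wild-type library. Its log2 change was −0.27 (SE 0.08, edgeR adjusted p 0.548). The phosphatase regulator Ppp1r17 stood at −0.28, the chloride channel family member Clic6 at −0.46, the adhesion molecule Cadm1 at −0.25, the cold-inducible RNA-binding protein Cirbp at −0.25 and the hyaluronan-link protein Hapln3 at −0.49. The chemokine Ccl27a, which has near-identical copies, stood at −0.33, the long noncoding RNA C130080G10Rik at −0.33 and the phosphoesterase Mpped2 at −0.26. Among the leading genes Erdr1 had the most extreme log2 change, −2.32 (SE 0.65), or −1.48 without wild-type replicate 4, and is uncertain. It is a transcribed pseudogene on the X chromosome, and wild-type replicate 4 at 53.9 CPM and replicate 8 at 17.5 CPM stood far above the wild-type median of 3.80 CPM.

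The Isl1 difference could also be read on the Nipbl-deficient background, in double_het against Nipbl_het, whose libraries are in neither group of the first contrast. Both contrasts came from the same fit with shared set terms and spread, so they are not independent estimates. The part of these shared terms in the matching signs was not tested. Of the 12 genes that led in the higher direction, 10 were higher there too, and 9 of them had an unadjusted p under 0.05. Of all genes tested, 3.44% were higher at that level. These 9 are the genes described above as sharing a pattern across libraries. Nphs1 had a log2 change of 0.77 (SE 0.25), Egfl6 0.73, Tmem255a 0.63, Kirrel2 0.58, Clca3a1 0.52, Smpd3 0.50, Csdc2 0.39, Upk3b 0.36 and Stom 0.26. Slc48a1 stood at 0.10, and it also had an unadjusted p under 0.05 once the library labelled Nipbl_het replicate 2 was left out. Pcdh17 had the opposite sign, −0.20, and Nsun4 stood at −0.0025 (−0.05 without that library). Of the 12 genes that led in the lower direction, 10 had the same sign but only Ppp1r17 (−0.31), Clic6 (−0.31) and Cadm1 (−0.24) had an unadjusted p under 0.05, where 5.56% of all genes were lower at that level. Without the library labelled Nipbl_het replicate 2, 11 had the same sign, Clic6 no longer had an unadjusted p under 0.05 (−0.24, p 0.0504, edgeR) and Hapln3 did (−0.29, from −0.15). Mycn stood at −0.03 (−0.10 without that library) and Erdr1 at 0.43. No adjusted p of these genes in that comparison was under 0.336 (edgeR, Ppp1r17). Of all 498 genes higher in Isl1_het at an unadjusted p under 0.05, 404 (81.1%) were higher in double_het and 127 had an unadjusted p under 0.05 there, while 46.2% of all genes tested were higher. Of the 388 lower genes, 314 (80.9%) were lower and 36 had an unadjusted p under 0.05, while 53.8% of all genes were lower. The same-sign counts were 405 and 330 when the library labelled Nipbl_het replicate 2 was left out. Genes are not independent of each other, so these shares carry no p.

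**Figure D2:**
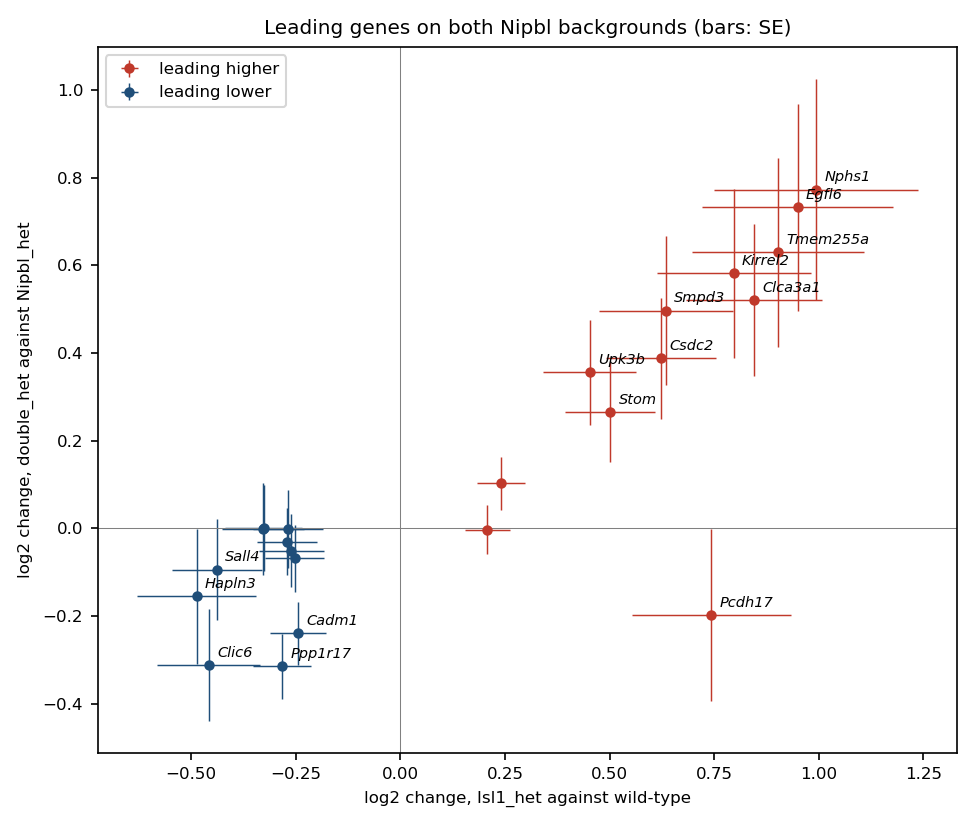
Log2 change of 23 leading genes in Isl1_het against wild-type (horizontal axis) and in double_het against Nipbl_het (vertical axis). The groups compared on the axes share no library, but both contrasts come from the same fit. Bars are standard errors, and Erdr1 is left out because its change of −2.32 would set the scale. Among genes that led in the higher direction, Nphs1, Egfl6, Tmem255a, Kirrel2 and Clca3a1 lay at 0.52 or above on both axes, and Pcdh17 had opposite signs. Of the genes that led in the lower direction, Ppp1r17, Clic6 and Cadm1 lay between −0.31 and −0.24 on the vertical axis.

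Coordinated shifts were examined in 50 lists of cell type markers and gene functions, each set beside all genes tested, of which 48.8% were higher with a median log2 change of −0.003. Of these lists, 6 had a median above 0 in each of sets 1, 2, 5 and 6, and 5 had a median below 0 in each. Among all genes tested, 12.1% were above 0 in every set and 8.75% were below. These counts of lists are near the shares of single genes. Counts within lists are given without a p, because genes of a list vary together.

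**Figure D3:**
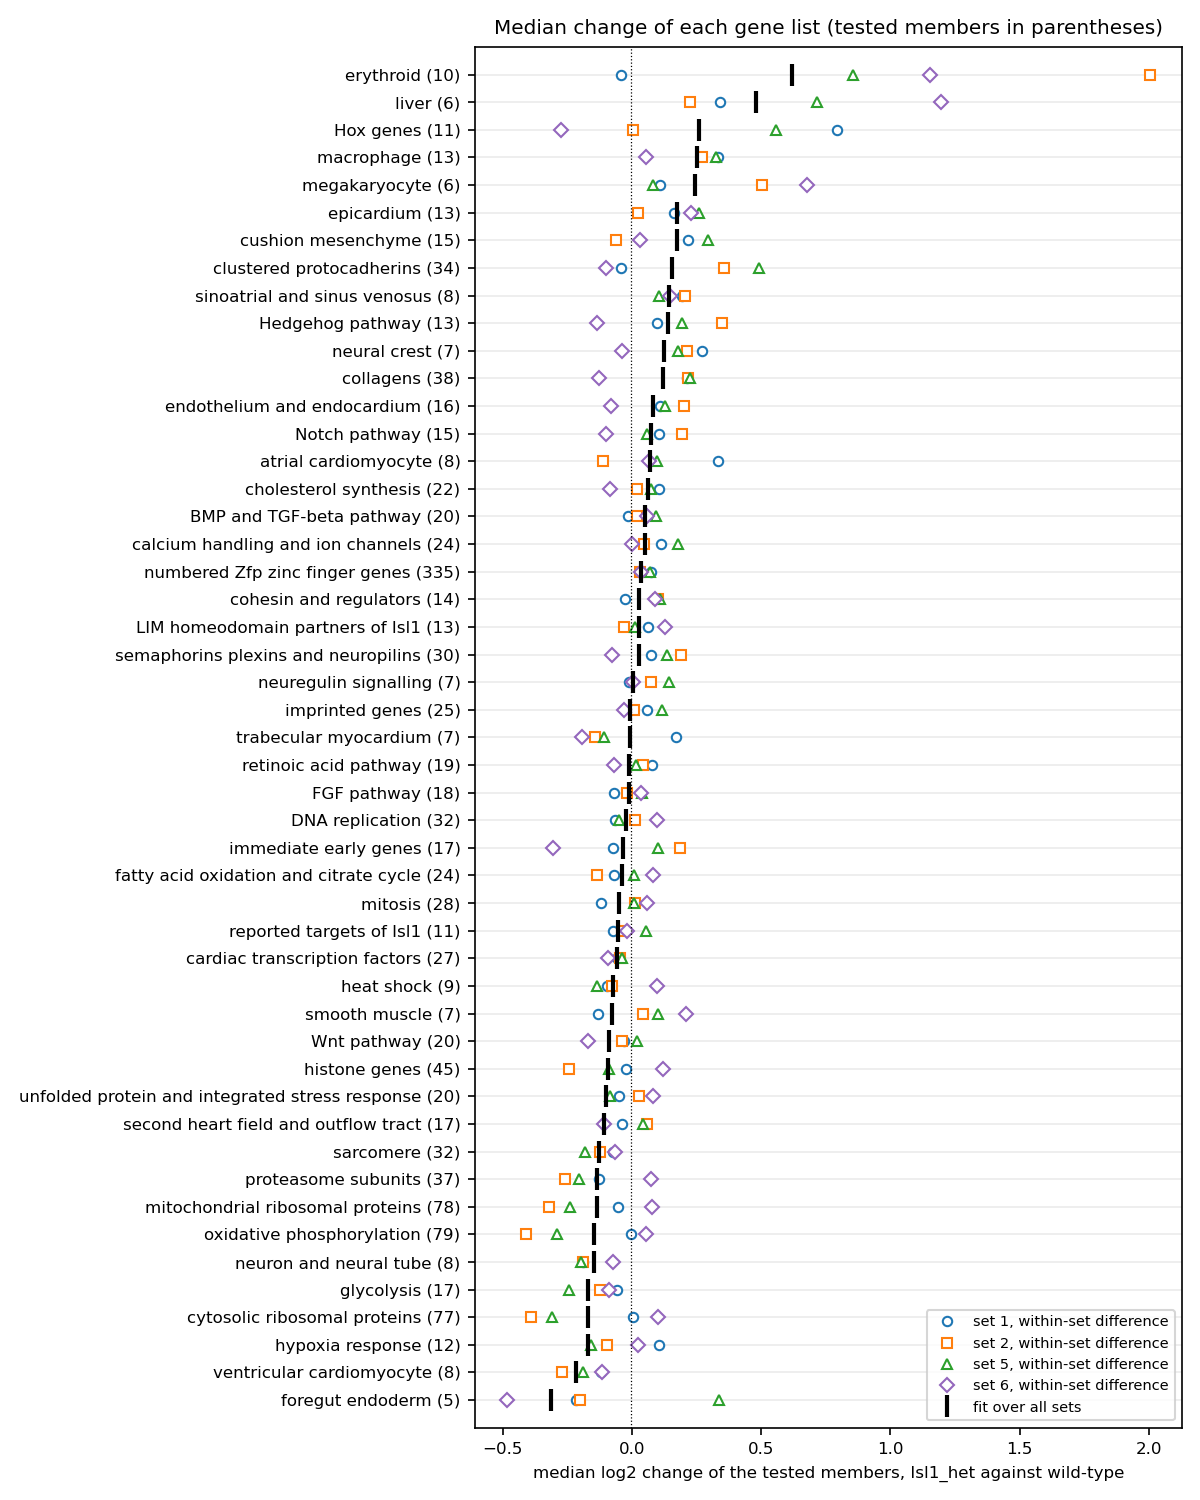
Median log2 change of the tested members of 49 gene lists, Isl1_het against wild-type. Black ticks give the fit over all sets, coloured symbols give the difference within set 1, 2, 5 or 6, and the dotted line is the median of all genes. Ventricular, sarcomere and glycolysis lists lay below 0 in every set and the epicardial list above 0 in every set, while ribosomal, oxidative phosphorylation and proteasome lists lay well below 0 only in sets 2 and 5, and set 1 was also below 0 for the proteasome. A list of pharyngeal and skeletal muscle genes with 2 tested members is not drawn.

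Ventricular markers stood slightly lower in Isl1_het. All 8 ventricular cardiomyocyte markers had a log2 change below 0, with a median of −0.21. Of them 3 had an unadjusted p under 0.05, counting Mycn, which was selected above on this contrast. These were Mycn, the ventricular light chain Myl3 (2987 ± 706 CPM in wild-type, SD, n = 10, and 2413 ± 454 CPM in Isl1_het, SD, n = 9, log2 change −0.30) and the ventricular identity factor Irx4 (−0.25). Myl2, the other ventricular light chain, stood at −0.26 (SE 0.15). Set medians were −0.12, −0.27, −0.19 and −0.12 in sets 1, 2, 5 and 6. The mean log2 CPM of the list ran from 8.37 to 8.99 in wild-type (median 8.76) and from 8.42 to 8.68 in Isl1_het (median 8.52), so the groups overlapped and wild-type replicate 7 was the lowest. In bulk tissue, fewer cells of a type and less RNA per cell cannot be told apart.

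Genes of the sarcomere, the contractile unit shared by atrial and ventricular cells, had the same direction. Of 32 tested, 29 were lower and 3 higher, with a median of −0.13, and 6 were lower at an unadjusted p under 0.05. These were Actc1 (−0.17), the skeletal actin Acta1 (−0.22), cardiac troponin T Tnnt2 (−0.22), tropomyosin Tpm2 (−0.13), Myl3 and desmin Des (−0.18). Of the others, cardiac troponin C Tnnc1 stood at −0.30, the stretch-responsive Ankrd1 at −0.29, the atrial light chains Myl4 and Myl7 at −0.22 and −0.12, and the myosin heavy chain Myh6 at 0.05. Wild-type replicate 4 weighed on several of these. Without it Tnnc1 stood at −0.08, Myl4 at −0.09, Myl7 at −0.07, Tnnt2 at −0.12, Des at −0.11, Myl2 at −0.17 and Myl3 at −0.20. With the exon length covariate described further on, Tnnc1 stood at −0.06, Myl4 at −0.06, Myl7 at −0.03, Myl2 at −0.13, Tnnt2 at −0.14 and Myl3 at −0.19, and with 2 surrogate variables these were −0.07, −0.05, −0.02, −0.14, −0.14 and −0.18. In 14 of the 32 genes all sets were below 0, and set medians were −0.07, −0.12, −0.18 and −0.07. These genes are highly expressed: 31 of the 32 were in the top quintile of genes by mean log2 CPM, where 67.6% of all genes were lower with a median of −0.04. So were 16 of 17 glycolysis, 6 of 8 ventricular and 74 of 77 cytosolic ribosomal genes. Glycolysis had the same direction: 15 of 17 enzymes and transporters were lower, with a median of −0.17, and 11 were below 0 in every set. Enolase Eno1 (−0.22) and lactate dehydrogenase Ldha (−0.24) had an unadjusted p under 0.05, Pgk1 stood at −0.19, and Gapdh, at 0.24, was an exception that turned to −0.21 without Isl1_het replicate 4. None of these genes had an edgeR adjusted p under 0.306 (Mycn).

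On the Nipbl-deficient background the ventricular and sarcomere medians were nearer to 0, and the difference between backgrounds was not tested. Median log2 changes were −0.03 for ventricular markers and 0.003 for sarcomere genes in double_het against Nipbl_het, or −0.09 and −0.04 with the library labelled Nipbl_het replicate 2 left out. The glycolysis median was −0.14, but 0.06 without that library. Atrial and trabecular markers had no common direction in Isl1_het, with medians of 0.07 (5 of 8 higher) and −0.01 (2 of 7 higher). With a library left out, the atrial median ran from 0.0070 (without wild-type replicate 2) to 0.12 (without wild-type replicate 4), and the trabecular median from −0.13 (without Isl1_het replicate 5) to 0.03 (without wild-type replicate 3). The atrial calcium pump regulator Sln had a log2 change of 1.33 (SE 0.39, edgeR adjusted p 0.463) at levels of 0.63 ± 0.53 CPM (SD, n = 10) and 1.28 ± 0.60 CPM (SD, n = 9).

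**Figure D4:**
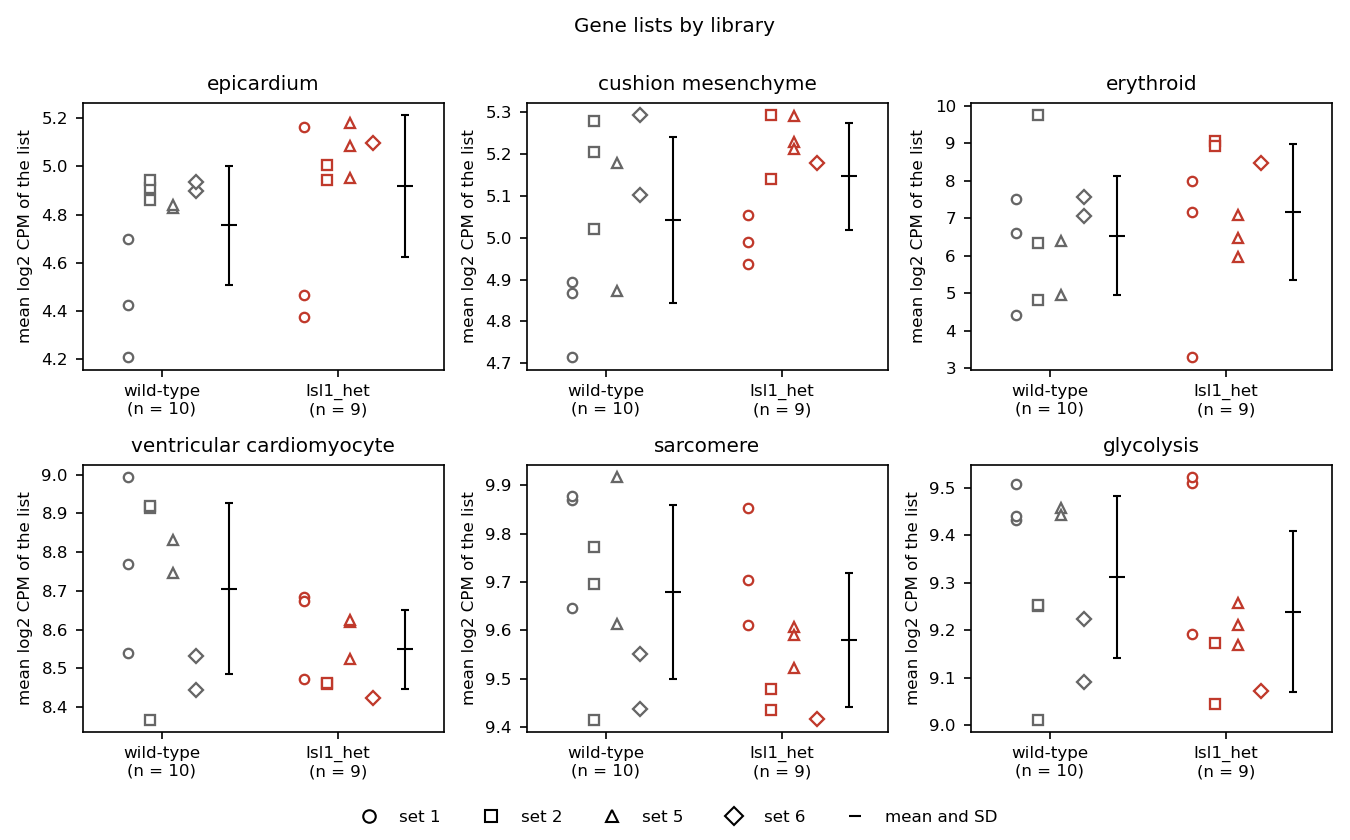
Mean log2 CPM of 6 gene lists in 10 wild-type and 9 Isl1_het libraries. Each symbol is a library, its shape gives the set, and bars give the mean and SD. Ventricular values reached 8.99 in wild-type and 8.68 in Isl1_het, epicardial values reached 4.94 in wild-type and 5.18 in Isl1_het, and erythroid values spread more within each group than between groups.

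Epicardial and mesenchymal genes stood higher. Of 13 epicardial markers, 9 were higher, with a median of 0.18. At an unadjusted p under 0.05 there were 5, none of them lower, counting Upk3b, which was selected above on this contrast. These were Upk3b, the retinoic acid synthesising enzyme Aldh1a2 (23.9 ± 9.50 CPM, SD, n = 10, and 32.6 ± 9.29 CPM, SD, n = 9, log2 change 0.57), the guidance ligand Sema3d (0.40), the membrane glycoprotein Gpm6a (0.40) and the mesothelial transcription factor Bnc1 (0.28). The epicardial transcription factors differed less: Tcf21 stood at 0.20, Tbx18 at 0.11 and Wt1 at −0.01, and the keratin Krt19 stood at −0.39. Set medians were 0.16, 0.03, 0.26 and 0.23. The mean log2 CPM of the list ran from 4.21 to 4.94 in wild-type (median 4.85) and from 4.37 to 5.18 in Isl1_het (median 5.00), with the set 1 libraries other than Isl1_het replicate 1 lowest. Without Isl1_het replicate 1, the highest library of set 1 at 5.16, the median of the list was 0.08, with Sema3d at 0.24, Bnc1 at 0.16, Tcf21 at 0.12 and Tbx18 at 0.04. In double_het against Nipbl_het all 13 markers were higher, with a median of 0.29, or 0.31 when the library labelled Nipbl_het replicate 2 was left out. All 10 erythroid genes were also higher in that comparison, with a median of 1.51 (1.33 without that library), and their part in the epicardial difference there was not tested.

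Cushion mesenchyme, the tissue of the future valves, had 11 of 15 markers higher with a median of 0.17. The matricellular protein Postn stood at 0.48 (66.7 ± 24.7 and 85.3 ± 19.3 CPM, SD, n = 10 and 9), the adhesion molecule Cdh11 at 0.38, the matrix protein Fbln2 at 0.37 and the receptor Pdgfra at 0.31, all with an unadjusted p under 0.05. The homeobox genes Msx1 and Msx2, which are expressed in cushion endocardium and mesenchyme, went the other way at −0.27 and −0.32, with only Msx2 at that level. Set medians were 0.22, −0.06, 0.29 and 0.03, and the median in double_het against Nipbl_het was 0.05, or 0.03 without the library labelled Nipbl_het replicate 2. Collagens had the same direction, 30 of 38 higher with a median of 0.12, or 0.06 with 2 surrogate variables. Of them 19 were in the quintile of genes with the longest exons, where 67.8% of all genes were higher. In this list Col1a2 (0.35) and Col3a1 (0.24), fibrillar collagens of mesenchymal cells, were among 5 higher and 0 lower at an unadjusted p under 0.05. Set 6, with a single Isl1_het library, had a collagen median of −0.13. Endothelial and endocardial markers were higher in 13 of 16, with a median of 0.08 (0.04 without Isl1_het replicate 6) and none at an unadjusted p under 0.05. Smooth muscle markers were split, with Acta2 (−0.18) and Tagln (−0.23), which are also expressed by embryonic cardiomyocytes, against Myh11 (0.67, or 0.41 without Isl1_het replicate 9), the mature smooth muscle myosin.

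Genes closest to Isl1 itself had no common direction. Among 17 second heart field and outflow tract genes, Isl1 included, 10 were lower and 7 higher, with a median of −0.11. It stood between −0.07 and −0.01 when any of wild-type replicates 2, 6 and 10 or Isl1_het replicates 2, 3, 6 and 8 was left out, and it was 0.01 with the erythroid covariate. The ligand Fgf8 was at 2.96 ± 2.18 CPM (SD, n = 10) and 2.01 ± 1.12 CPM (SD, n = 9), a log2 change of −0.57 (SE 0.21, edgeR adjusted p 0.745), and it had −0.53 in double_het against Nipbl_het. The co-receptor Tdgf1 stood at −0.52, Wnt11 at −0.16 and the forkhead factor Foxc1 at 0.25, each with an unadjusted p under 0.05. Among 11 genes reported as Isl1 targets, 5 were higher and 6 lower (median −0.05). That median ran from −0.09 without Isl1_het replicate 9 to −0.03 without Isl1_het replicate 1, and it was 0.01 with the erythroid covariate. Fgf8, Fgf10 (−0.47) and Nkx2-5 (−0.20) were on the lower side and Pdgfra and Shox2 on the higher side. LIM-homeodomain partners and cofactors stayed near 0 (median 0.03, but −0.0040 without wild-type replicate 10), with Isl2, the closest relative of Isl1, at 0.84 but only 0.23 ± 0.06 CPM (SD, n = 10) and 0.41 ± 0.26 CPM (SD, n = 9). Of 27 cardiac transcription factors 17 were lower, with a median of −0.06, or −0.03 without wild-type replicate 10 and −0.00012 with the erythroid covariate. Irx2 (−0.30), Irx4 and Nkx2-5 (edgeR adjusted p 0.643) were lower and the Gata cofactor Zfpm1 (0.31) higher at an unadjusted p under 0.05. Nkx2-5 had the same value, −0.20, in double_het against Nipbl_het.

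The sinoatrial and sinus venosus list, where Isl1 remains active, had 5 of 8 markers higher with a median of 0.14 and set medians between 0.10 and 0.21. With 2 surrogate variables the median was 0.08. Shox2, a homeobox gene of pacemaker precursors, ran from 0.85 to 47.8 CPM in wild-type (13.9 ± 14.9, SD, n = 10) and from 5.37 to 49.6 CPM in Isl1_het (19.8 ± 13.6, SD, n = 9), and its log2 change was 0.89 (SE 0.40, edgeR adjusted p 0.835). Smoc2 stood at 1.21 and the pacemaker channel Hcn4 at 0.14. Without the set term Shox2 stood at 0.51 and Smoc2 at 0.67, and with 2 surrogate variables Hcn4 stood at 0.06. Hearts of 1 group thus differed widely in Shox2, and the groups overlapped over most of the range. In double_het against Nipbl_het all 8 were lower, with a median of −0.33.

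Among these lists the erythroid one varied most between libraries, with an SD of mean log2 CPM of 1.59 in wild-type and 1.81 in Isl1_het. All 10 erythroid genes tested were higher, with a median of 0.62, but their median SE was 0.58 and none had an unadjusted p under 0.05. Set medians were −0.04, 2.00, 0.86 and 1.15. Summed erythroid CPM ran from 1874 to 106680 in wild-type and from 828 to 48544 in Isl1_het. Wild-type replicate 7 held the highest sum, and without it the median was 1.12. Embryonic alpha-like globin Hba-x stood at 0.63, or 1.05 without that library. Of the 15 genes listed, 5 were not tested, among them adult alpha and beta globins with at most 4 counts in any of the 19 libraries. Such counts do not show that these globins were absent. The ribosomal protein gene Rpl26 and the oxidative phosphorylation gene Ndufs5 also had totals of only 1 and 0 counts over the 19 libraries. Whether reads shared between similar genes were lost was not tested. Macrophage genes were higher in 12 of 13 (median 0.25, or 0.39 without wild-type replicate 7 or Isl1_het replicate 9, and 0.09 with genes of at least 10 counts in every library) at low levels, summing to between 26.7 and 47.2 CPM, with Ptprc at an unadjusted p under 0.05 (1.07), and all 6 megakaryocyte genes were higher (median 0.24, or 0.14 and 0.13 without Isl1_het replicate 4 or 7). In double_het against Nipbl_het all 6 megakaryocyte, 11 of 13 macrophage and 5 of 6 liver genes were lower, with medians of −0.49, −0.34 and −0.93, or −0.14, 0.04 and −1.08 without the library labelled Nipbl_het replicate 2. Liver markers, whose median sums were 14.5 CPM in wild-type and 17.9 CPM in Isl1_het, were higher in 5 of 6 (median 0.48), but the median was 0.04 without Isl1_het replicate 9. Neuronal genes were lower in 6 of 8 (median −0.15), with Pax6 (−0.83) and Elavl3 (−0.46) at an unadjusted p under 0.05, at 0.53 ± 0.14 and 1.06 ± 0.31 CPM in wild-type (SD, n = 10). The foregut endoderm list had 3 of 5 lower (median −0.31), with Krt8 at −0.33, but its median was 0.35 without wild-type replicate 6. With the erythroid level as a covariate the epicardial median was 0.13, the ventricular median −0.14 and the cushion mesenchyme median 0.21. Whether blood, liver or neural cells had a part in the other differences was otherwise not tested.

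Signalling pathways and other gene families had few members at an unadjusted p under 0.05. Of 13 Hedgehog genes 12 were higher (median 0.14, none at an unadjusted p under 0.05, and −0.14 within set 6), and the median was 0.09 without wild-type replicate 4 and 0.08 without Isl1_het replicate 5. Without set 2 it was 0.03. Notch genes had 11 of 15 higher (0.07, or 0.04 without Isl1_het replicate 5 and 0.01 with 2 surrogate variables), BMP and TGF-beta genes 11 of 20 (0.05, or 0.02 without Isl1_het replicate 5) with the BMP antagonist Nog at −0.27, and FGF genes 7 of 18 (−0.01, and from −0.04 without Isl1_het replicate 6 to 0.0062 without wild-type replicate 2). Wnt genes had 7 of 20 higher (−0.09), with Sfrp1 (0.25), Wnt5b (0.33) and Wnt9b (0.46) higher and Wnt11 lower at an unadjusted p under 0.05, and a median of 0.01 without wild-type replicate 6. Retinoic acid genes had 8 of 19 higher (−0.01), with Aldh1a2 among those at that level. Cohesin genes and their regulators had 10 of 14 higher (0.03, but −0.0078 without wild-type replicate 4), clustered protocadherins 26 of 34 (0.15, or 0.08 without wild-type replicate 4 or Isl1_het replicate 5 and 0.02 with 2 surrogate variables) and Hox genes 8 of 11 (0.26, but −0.03 without Isl1_het replicate 3). Of the latter, Hoxa3 stood at 0.89 at levels under 1 CPM, 0.52 ± 0.37 and 0.90 ± 0.44 CPM (SD, n = 10 and 9). All 11 Hox genes were lower in double_het against Nipbl_het, with a median of −0.65, or −0.58 without the library labelled Nipbl_het replicate 2. The imprinted growth genes H19 (0.16) and Igf2 (0.18) were higher at an unadjusted p under 0.05, while imprinted genes as a list had a median of −0.01. The imprinted median kept its sign in 23 of 35 alternatives and the retinoic acid median in 24. Among 335 numbered zinc finger genes of the Zfp series, 220 were higher, 54 with every set above 0 and 11 with every set below 0, with a median of 0.03, or 0.02 without Isl1_het replicate 5 or 9. In double_het against Nipbl_het 179 of them were lower, with a median of −0.0087, or 0.02 without the library labelled Nipbl_het replicate 2.

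A different kind of shift appeared in genes of general cell metabolism. Of 77 cytosolic ribosomal protein genes 74 were lower (median −0.17), as were 76 of 78 mitochondrial ribosomal protein genes (−0.14), 78 of 79 oxidative phosphorylation genes (−0.15) and 35 of 37 proteasome subunits (−0.14). Among them only the proteasome subunit Psma5 (−0.22, or −0.14 without wild-type replicate 4) had an unadjusted p under 0.05. These lists differed between sets: the cytosolic ribosomal medians were 0.01, −0.39, −0.31 and 0.10 in sets 1, 2, 5 and 6, and 3 of 77 genes were below 0 in every set. In the other lists 17 of 78 mitochondrial ribosomal, 3 of 79 oxidative phosphorylation and 6 of 37 proteasome genes were, beside 8.75% of all genes. Medians in double_het against Nipbl_het lay between −0.07 and −0.03, and between −0.17 and −0.07 with the library labelled Nipbl_het replicate 2 left out.

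Exon length moved with this pattern. Across all genes cut into quintiles of exon length, the shortest had a median log2 change of −0.08 with 28.6% higher, and the longest had 0.04 with 67.8% higher. In set 2 these medians were −0.19 and 0.13 and in set 5 −0.14 and 0.10, while in set 1 they were −0.01 and 0.03 and in set 6 0.03 and −0.01. The difference between short and long genes in a library, as mean log2 CPM of the shortest minus the longest quintile relative to all libraries, ran from −0.38 to 0.53 in wild-type and from −0.24 to 0.25 in Isl1_het. It was highest in wild-type replicates 3, 7 and 4, at 0.53, 0.48 and 0.36. With this measure as a covariate, an alternative added after seeing the data, the cytosolic ribosomal median was −0.03, the mitochondrial ribosomal median −0.03, the oxidative phosphorylation median −0.02 and the proteasome median −0.06. Without wild-type replicate 4 they were −0.05, −0.05, −0.05 and −0.08, and without wild-type replicate 3 the first 3 were −0.11, −0.09 and −0.09. The part of library make-up in the ribosomal shift was not tested further. Over 35 alternatives the cytosolic ribosomal median ran between −0.23 and −0.0011, the mitochondrial ribosomal median between −0.18 and −0.03, the oxidative phosphorylation median between −0.20 and −0.01 and the proteasome median between −0.18 and −0.05. Over the same alternatives the sarcomere median ran between −0.16 and −0.10, the ventricular median between −0.25 and −0.14, the glycolysis median between −0.23 and −0.10 and the epicardial median between 0.08 and 0.22.

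**Figure D5:**
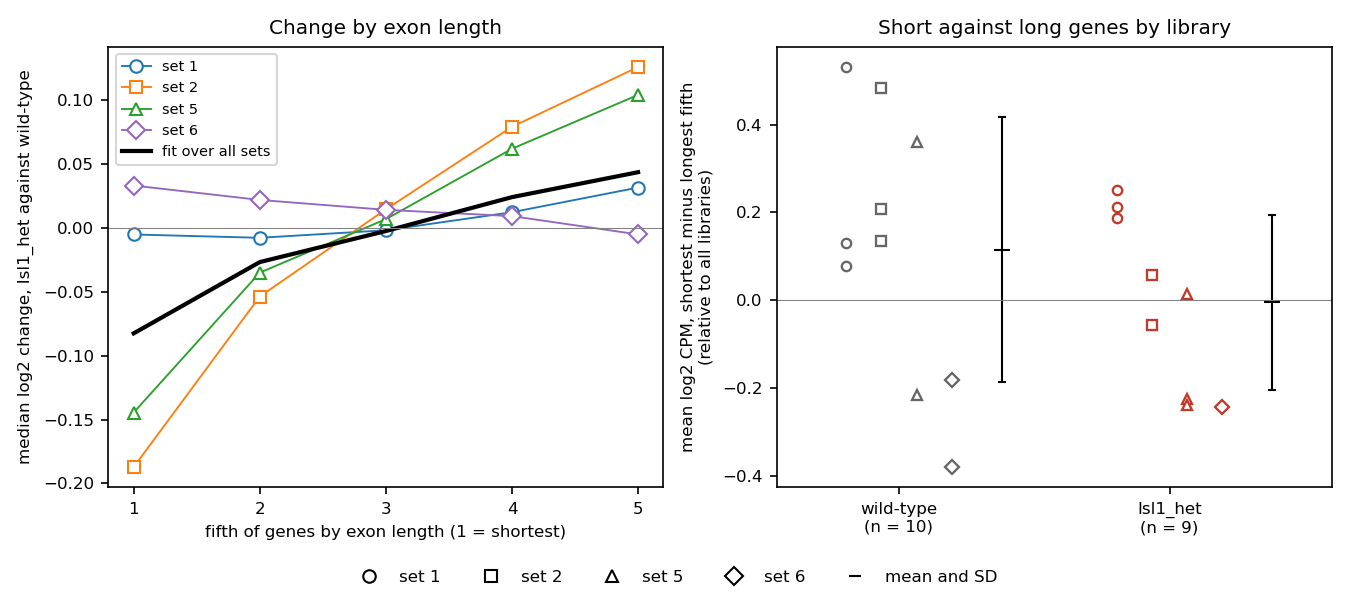
Left, median log2 change of Isl1_het against wild-type in quintiles of genes by exon length, for the fit over all sets (black) and within each set. Right, mean log2 CPM of the shortest minus the longest quintile of genes in each library, with shape for the set and bars for mean and SD. Lines of sets 2 and 5 climbed from −0.19 and −0.14 to 0.13 and 0.10, those of sets 1 and 6 stayed within 0.04 of 0, and the highest libraries on the right were wild-type.

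A survey of 106 symbol families, genes sharing the letters before the first digit, gave the following extremes. The lowest medians were those of Rpl (−0.17, 47 of 49 lower), Mrpl (−0.15), Rps (−0.14), the small nucleolar RNA host genes Snhg (−0.13) and Cox (−0.13). The highest were the synaptotagmins Syt (0.26, 11 of 15 higher), the secreted metalloproteases Adamts (0.17, 15 of 17 higher), St (0.15), Il (0.13, 24 of 29 higher) and Col (0.12, 31 of 39 higher). Adamts and Col, both matrix families, had 5 higher and 0 lower members each at an unadjusted p under 0.05. St and Il, like the other families, are grouped by letters alone, so their members need not be related. For Adamts the set medians were 0.34, 0.23, 0.30 and 0.02, and the median in double_het against Nipbl_het was 0.07, while for Syt it was −0.16.

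Whether the Isl1 difference itself varied between sets was tested with an interaction of genotype and set in the 19 libraries. edgeR called 0 of 14505 genes (0%), with a smallest adjusted p of 0.966 and 440 genes at an unadjusted p under 0.05, and DESeq2 called 2, Smoc1 and Abhd2. Smoc1, a secreted matricellular protein, had means of 3.80 CPM in wild-type and 5.80 CPM in Isl1_het in set 1, and of 7.34 and 5.55 CPM in set 5. Abhd2, an abhydrolase, had means of 2.40 and 5.86 CPM in set 2 and of 3.27 and 2.37 CPM in set 1. Both were named after their values were seen, and their edgeR adjusted p was 0.966.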

How the data were processed

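Bulk RNA sequencing reads of E10.5 hearts were aligned with STAR and counted with featureCounts on GRCm38 (mm10), per the submitters' processing notes. Versions, annotation and strand setting are not given in the sources used here. The authors deposited raw counts per gene symbol, whole numbers without normalization, for 37 libraries and 25239 genes. Libraries were grouped by title and matched by column name, and 0 other value columns were present. Set numbers are the digits after IVF in the labels, which do not spell out what they mark.

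The filter was filterByExpr on genotype, with at least 10 counts per library and 15 in total, and left 15046 genes. TMM-scaled counts of all 37 libraries were fitted with edgeR 4.0.16 (limma 3.58.1, R 4.3.3) quasi-likelihood models with genotype and set as factors, so that all genotypes share one estimate of the spread. Tests were two-sided, with Benjamini-Hochberg adjustment across every gene tested and a threshold of 0.05. Standard errors come from the F statistic. Within-set differences and list levels used log2 CPM with a prior count of 2. CPM values are TMM-scaled and not divided by gene length. The fit was checked on simulated counts drawn without set effects and independently between genes, so that check does not cover the set terms.

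Named genes are Isl1, Nipbl, 5 heart genes as a check of the tissue, up to 12 genes a direction by smallest p (mean log2 CPM at least 1, no Xist or Y-linked marker, same sign in sets 1, 2, 5 and 6), and from each list the 3 smallest p and all members at an unadjusted p under 0.05; those that a result turns on are printed. A result for 1 list member is not reported here. Members and lists were chosen with earlier results of these data known. Other members named in a list were chosen for their role after their values were seen. Exon lengths came from GENCODE M21 for 14768 genes (98.2%). Promoters and gene positions came from RefSeq (GRCm38.p6), where 24 of the 26 targeted and leading genes are protein-coding. Of 81 library pairs within a group, none lay within sampling noise (smallest chi-square per degree of freedom 7.39).

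Alternatives were no set term, replicate numbers as a block in place of sets, the 19 libraries alone, DESeq2 1.42.0, its size factors in edgeR, other count filters, 2 surrogate variables (sva 3.50.0), Xist level or erythroid level as a covariate, a set left out and a library left out. A length covariate was added after seeing the data. Other tools were Python 3.11.15, pandas 2.3.3 and matplotlib 3.10.9.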

Additional observations from a re-analysis of the deposited data

Results flagged for a closer look

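In groups of 9 or 10 libraries, the highest or lowest library was set apart by its gap to the next, relative to the group's range. Of 162 groups of values examined, 7 had such a library, and chance alone gives about 1 in 20. Mycn was 53.0 CPM in wild-type replicate 7, while the next wild-type library was at 68.4 CPM. Cirbp was 54.5 CPM in Isl1_het replicate 9, below 63.6 CPM in the next Isl1_het library.

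The cardiac transcription factor list had a mean log2 CPM of 5.85 in wild-type replicate 7, below 6.07 in the next. The atrial cardiomyocyte list stood at 6.28 in wild-type replicate 2, below 7.02 in the next. In wild-type replicate 6, the Wnt pathway list stood at 3.55 and the foregut endoderm list at 3.39, above 3.07 and 2.00 in the next libraries. The liver list stood at 1.70 in Isl1_het replicate 9, above −0.13 in the next, and this library decides the liver median given above.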

How the results depend on the processing

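Calls at an adjusted p under 0.05 numbered 0 in 31 of 35 alternatives. DESeq2 called 11 (Clca3a1, Csdc2, Dipk1c, Egfl6, Kirrel2, Mir6516, Nphs1, Stom, Tex15, Tmem255a and Zfyve28) and 2 surrogate variables called 9 (Clca3a1, Clic6, Csdc2, Folr1, Gspt2, Mycn, Stom, Sulf1 and Zfyve28). Leaving out a library gave 0 to 2. Genes at an unadjusted p under 0.05, 886 in the main model, numbered 439 without the set term, 529 with the replicate block, 2472 in the 19 libraries alone, 2030 with 2 surrogate variables, 558 without set 1, 575 without set 2, and 531 to 1781 with a library left out. The share of these that were higher was 56.2%, 48.9% with DESeq2-style size factors, and 40.3% to 66.9% over all alternatives, so which direction held more genes depended on the setting. Size factors moved the median of all genes to −0.01. The DESeq2 interaction test called 2 genes. The cause of these differences was not tested.

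Same-numbered libraries did not pair: their deviations correlated between −0.45 and 0.37, over 0.1 in 4 of 9 pairs, and 1 of 9 correlated best with its own number. The replicate block called 0 genes, with a smallest adjusted p of 0.286.

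Signs turned for 4 genes near 0 or with a deviating library. The log2 change of Nipbl stood at −0.016 with surrogate variables, −0.041 with the length covariate, −0.00793 without set 2 and −0.0102 to 0.0531 with a library left out. The log2 change of Myh6 stood at −0.017, −0.012 and −0.017 under the same settings and −0.000567 to 0.0757 with a library left out. The log2 change of Gapdh stood at −0.25 without set 2 and −0.21 (without Isl1_het replicate 4) to 0.41 with a library left out. The log2 change of Wt1 stood at 0.0282 without the set term, 0.0359 with the replicate block, 0.0107 in the 19 libraries alone, 0.0371 without set 1 and −0.0491 to 0.0397 with a library left out. Isl1 kept its sign in all 35 alternatives (−0.33 to −0.06).

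Of the 50 lists, 28 kept the sign of their median in all 35 alternatives, among them the epicardial, cushion mesenchyme, collagen, ventricular, sarcomere and glycolysis lists. With a median SE of 0.11 per gene, changes of the size seen here are not resolved gene by gene. Intervals and SDs cover these hearts only.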
